A study of Mus musculus with 6 samples.

Results

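The 10 genes described here encode the liver X receptors (LXRs), sterol transporters, and enzymes that make oxysterols or esterify sterols. They were taken by symbol from the count and FPKM tables, as 10 of the 41079 genes listed. All 10 had enough counts and were among the 14618 genes tested. LXRs are nuclear receptors that pair with retinoid X receptors and are switched on by oxysterols, which are oxidized forms of cholesterol. Their target genes move cholesterol out of the cell, limit its uptake and change the fatty acids of phospholipids. In microglia, this pathway handles the cholesterol taken up with myelin debris and dying cells.

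RNA came from primary microglia of C57Bl/6N mice aged 1 to 3 days when the brains were taken, with 3 libraries per condition. Flasks of mixed glia from a pool of neonatal brains were fed L-929 conditioned medium. By the study's methods, microglia were shaken off on several days, weeks after the brains were taken, and all cells met serum briefly while they adhered. Control cultures were kept in serum-free DMEM/F12. Optimized cultures received human TGFbeta, IL34 and CX3CL1 at 100 ng/mL each, and, by the study's methods but not by the labels, also cholesterol and insulin-transferrin-selenium on collagen IV. All supplements were given at once, so the effect of cholesterol cannot be told apart from that of the others. The study calls its replicates biological, while the labels do not say whether they came from separate cultures or animals, and p-values measure the spread between these libraries.

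The libraries held 20628148 to 27261839 counts. Optimized replicate 1 stood apart from the other 2 optimized libraries. The chi-square statistic per degree of freedom over genes was 79.9 and 46.8 for its pairs, against 14.6 for optimized replicates 2 and 3 and 10.8 to 26.3 between control libraries. Microglial markers, with 11 of 12 symbols found, summed to 7394 to 7847 CPM (counts scaled to a library of common size) in control and 11878 to 14916 CPM in optimized libraries, with 7 markers higher and 3 lower. Marker sums of other cells were 800 to 828 and 722 to 842 CPM for border-associated macrophages, 199 to 219 and 206 to 249 CPM for oligodendrocytes, 38.3 to 40.0 and 26.2 to 31.2 CPM for astrocytes, and 5.12 to 6.08 and 6.96 to 8.13 CPM for neurons. Within the border-associated macrophage list 2 of 4 markers tested were higher and 1 was lower, with Mrc1 at 307 to 351 CPM in control and 56.7 to 67.0 CPM in optimized libraries and Siglec1 at 303 to 359 and 373 to 597 CPM. The lists of neurons, monocytes and endothelial cells each had 1 marker higher, that of astrocytes 1 lower, that of oligodendrocytes 1 each way and that of fibroblasts 0. Fibroblast markers summed to 34.5 to 48.8 CPM in control and 31.0 to 151 CPM in optimized libraries, with the highest sum in optimized replicate 3. Endothelial markers summed to 81.5 to 97.1 and 274 to 352 CPM, most of it Flt1, and monocyte markers to 0.70 to 1.28 and 1.98 to 5.59 CPM, with S100a9 at 0 in all libraries. The part of these sums in the results was not tested, except that the 5 calls among the 10 genes also held without optimized replicate 1 and without optimized replicate 3. In bulk RNA, fewer cells of a type and less RNA per cell cannot be told apart.

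Ch25h, Mylip and Lpcat3 rose in the optimized cultures, while Nr1h3 and Cyp27a1 fell. The other 5 genes, Nr1h2, Abca1, Abcg1, Abca7 and Soat1, had log2 fold changes between -0.12 and 0.27 and did not pass the test. Calls rest on edgeR's quasi-likelihood test with an adjusted p-value under 0.05 over all genes tested. The same test called 29.8% of all genes, 14.7% as higher and 15.2% as lower. The median log2 fold change was 0.06 over the 10 genes and 0.01 over all genes tested. In CPM, 4 of the 10 genes were higher in every optimized than in every control library and 2 were lower in every one, as were 21.4% and 22.5% of all genes tested.

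**Figure D1:**
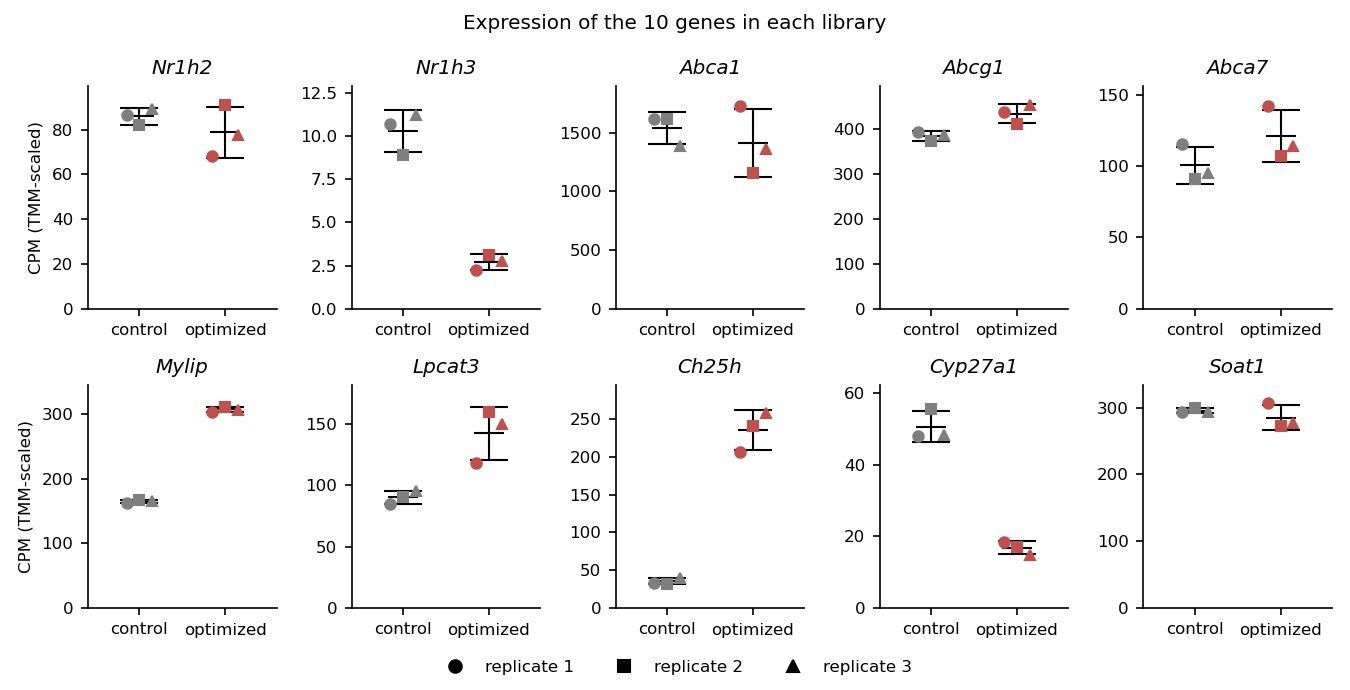
Each panel plots 1 gene in CPM after TMM scaling, with control libraries in grey, optimized libraries in red, and the mean and SD (n = 3 each) in black. Nr1h3 and Cyp27a1 sit lower and Mylip, Lpcat3 and Ch25h higher in all 3 optimized libraries, whereas Abca1, from 1155 to 1726 CPM in optimized libraries, spans the control libraries.

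Of the receptor genes, Nr1h3 fell and Nr1h2 did not pass the test. Nr1h3, which encodes LXRα, the form enriched in macrophages and liver, is on chromosome 2 of GRCm39 from 91014394 to 91033417. It had 10.7, 8.89 and 11.2 CPM in control libraries 1 to 3 and 2.23, 3.11 and 2.76 CPM in optimized libraries 1 to 3. Every optimized library was below every control library. The gene was 3.79-fold lower, or -1.92 on the log2 scale (standard error 0.17, adjusted p = 2.3e-05 by edgeR's quasi-likelihood test). Raw counts were low, at 218 to 306 in control and 47 to 73 in optimized libraries.

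Exons of Nr1h3 share 256 bases with Acp2, a lysosomal acid phosphatase gene on the other strand whose mean count was 37.2 times as high. Acp2 also fell, from 329 ± 4.50 to 162 ± 8.22 CPM (SD, n = 3), which is -1.02 on the log2 scale. Whether strand was used in the counting is not given in the sources used here, and the part of Acp2 reads in the value of Nr1h3 was not tested. The deposited FPKM values imply a gene length of 2236 to 2369 bases for Nr1h3, against 5060 bases of exons in GENCODE M39, and whether the shared bases belong to the model that was counted was not tested.

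Nr1h2, on chromosome 7 from 44199036 to 44203406, encodes LXRβ, the form found in most tissues. It had 86.4, 82.1 and 89.5 CPM in control and 68.3, 91.0 and 77.5 CPM in optimized libraries. The highest and the lowest value both lay in optimized cultures, so the groups overlapped. Its log2 fold change was -0.12 (standard error 0.11, adjusted p = 0.45 by edgeR's quasi-likelihood test). In FPKM, which carries the authors' own library scaling, the optimized libraries (17.8 to 21.9) were all below the control libraries (23.3 to 24.5). With library size alone the log2 fold change was -0.26 and the adjusted p-value 0.058 by edgeR, with the median of all genes at -0.12. Over all alternatives the adjusted p-value of Nr1h2 ranged from 0.056 to 0.84.

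A ratio of the receptors within a library does not depend on scaling between libraries. Per length, the FPKM of Nr1h2 was 4.87, 5.57 and 4.82 times that of Nr1h3 in control libraries. It was 18.5, 17.7 and 17.0 times that of Nr1h3 in optimized libraries. On the log2 scale, with 0.1 added to each FPKM, the ratio rose from 2.32 ± 0.11 to 4.03 ± 0.05 (SD, n = 3). The difference was 1.71, and its p-value of 0.1 (exact permutation test, two-sided) is the lowest that groups of 3 can reach.

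Transcripts of the sterol transporters did not pass the test. Abca1, on chromosome 4 from 53030787 to 53159900, encodes the pump that loads cholesterol onto lipid-poor apolipoproteins and is a direct LXR target. It had 1618, 1619 and 1384 CPM in control and 1726, 1155 and 1358 CPM in optimized libraries. Optimized replicate 1 was the highest of all libraries, and optimized replicates 2 and 3 were below every control. The log2 fold change was -0.12 (standard error 0.15, adjusted p = 0.59 by edgeR's quasi-likelihood test). Without optimized replicate 1 it was -0.29 and passed the test, with an adjusted p-value of 0.042 by edgeR and a range from 0.042 to 0.98 over the alternatives. In that fit 35.1% of 14916 genes were called, against 29.8% with all libraries.

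Abcg1, on chromosome 17 from 31276649 to 31336969, encodes a transporter that passes cholesterol to mature lipoprotein particles. It had 394, 372 and 386 CPM in control and 438, 410 and 452 CPM in optimized libraries. All optimized libraries were above all control libraries in CPM, a separation in either direction that 43.9% of all genes tested showed, but in FPKM the groups overlapped. Its log2 fold change was 0.17 (standard error 0.08, adjusted p = 0.15 by edgeR's quasi-likelihood test), and 0.05 with library size alone.

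Abca7, on chromosome 10 from 79832280 to 79851410, encodes a phospholipid and sterol transporter that is a risk gene for Alzheimer's disease. Its values were 116, 91.0 and 94.8 CPM in control and 142, 107 and 114 CPM in optimized libraries. Control replicate 1 lay above 2 of the optimized libraries. In the fit the log2 fold change was 0.27 (standard error 0.13, adjusted p = 0.15 by edgeR's quasi-likelihood test). Per length, Abca1, Abcg1 and Abca7 together made up 82.8% to 83.8% of the summed FPKM of 19 ABCA and ABCG genes in control and 85.2% to 86.1% in optimized libraries. Abca1 alone made up 52.1% to 56.0% and 48.0% to 54.6%.

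Mylip and Lpcat3, LXR targets that act on uptake and on membrane lipids, both rose. Mylip, on chromosome 13 from 45543215 to 45565501, encodes the ubiquitin ligase IDOL, which sends lipoprotein receptors to degradation. It had 163, 166 and 165 CPM in control and 303, 311 and 307 CPM in optimized libraries. The spread within each group was small beside the distance between them. Mylip rose by 0.90 on the log2 scale (standard error 0.08, adjusted p = 1.4e-05 by edgeR's quasi-likelihood test), which is 1.87-fold.

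Lrp8 and Vldlr encode receptors on which Mylip acts. Lrp8 had 9.66 ± 1.79 and 8.96 ± 1.38 CPM and Vldlr 1.64 ± 0.41 and 1.85 ± 0.06 CPM (SD, n = 3), and neither passed the test. These are transcripts, and the degradation of the receptor proteins was not measured.

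Lpcat3, on chromosome 6 from 124639765 to 124684440, encodes an acyltransferase that puts polyunsaturated fatty acids into phospholipids. It had 84.8, 90.7 and 95.2 CPM in control and 118, 159 and 150 CPM in optimized libraries. Optimized replicate 1 was the lowest of its group and still above every control. Lpcat3 rose by 0.66 on the log2 scale (standard error 0.12, adjusted p = 0.0019 by edgeR's quasi-likelihood test), which is 1.58-fold, and it was 0.78 without optimized replicate 1.

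In GENCODE M39, exons of Lpcat3 share 4277 bases with Emg1, a ribosome assembly gene on the other strand. Emg1 had 0.289 times the mean count of Lpcat3 and did not pass the test, at 32.6 ± 2.28 and 33.5 ± 3.35 CPM (SD, n = 3). The FPKM values imply a length of 2230 to 2363 bases for Lpcat3, against 7956 bases of exons in GENCODE M39. Whether the shared bases were counted for Lpcat3 was not tested.

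The largest change in either direction was that of Ch25h, among the 10 genes. It is a gene with 1 exon on chromosome 19 from 34451178 to 34452564, and encodes the endoplasmic reticulum enzyme that hydroxylates the side chain of cholesterol to an oxysterol with antiviral activity. It had 33.6, 32.1 and 39.7 CPM in control and 207, 241 and 259 CPM in optimized libraries. The groups were far apart, with 769 to 1084 counts in control and 4368 to 5651 counts in optimized libraries. The log2 fold change was 2.74 (standard error 0.12, adjusted p = 2.3e-07 by edgeR's quasi-likelihood test), which is 6.70-fold.

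Cyp27a1, on chromosome 1 from 74752314 to 74777056, encodes the mitochondrial enzyme that oxidizes cholesterol at another side chain carbon and starts the acidic route of bile acid synthesis. It went the other way, with 48.1, 55.6 and 48.3 CPM in control and 18.5, 17.0 and 14.9 CPM in optimized libraries. No library of one group reached the other. Its level was 3.01-fold lower, or -1.59 on the log2 scale (standard error 0.11, adjusted p = 4.3e-06 by edgeR's quasi-likelihood test). Its exons share 1088 bases with Prkag3, which had a mean of 2.0 counts.

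The levels of these enzymes per length were alike in control cultures, where the FPKM of Ch25h was 1.23, 1.01 and 1.44 times that of Cyp27a1. In optimized libraries it was 19.6, 24.8 and 30.6 times that of Cyp27a1. Of the other oxysterol genes listed, 6 of 9 had too few counts to test, among them Cyp7b1, with at most 8 counts in a library and named after its values were seen. Cyp7b1 encodes the enzyme that converts the product of Ch25h into the ligand of Gpr183. Gpr183, the receptor that guides immune cells along oxysterol gradients, had 30.1 ± 2.88 and 29.3 ± 2.97 CPM (SD, n = 3). Hsd3b7, which inactivates that ligand, had 46.3 ± 3.06 and 55.6 ± 6.51 CPM (SD, n = 3) and an adjusted p-value of 0.090 by edgeR, against 0.0078 without optimized replicate 1. The neuronal cholesterol hydroxylase gene Cyp46a1, named likewise, was under 1 CPM in every library.

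Soat1, on chromosome 1 from 156252095 to 156303864, encodes the enzyme that esterifies cholesterol for storage in lipid droplets. It had 294, 299 and 293 CPM in control and 307, 272 and 276 CPM in optimized libraries. The control libraries fell within the range of the optimized ones. The log2 fold change was -0.05 (standard error 0.08, adjusted p = 0.70 by edgeR's quasi-likelihood test). Over the alternatives it ranged from -0.19 to -0.03, and none passed the test.

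**Figure D2:**
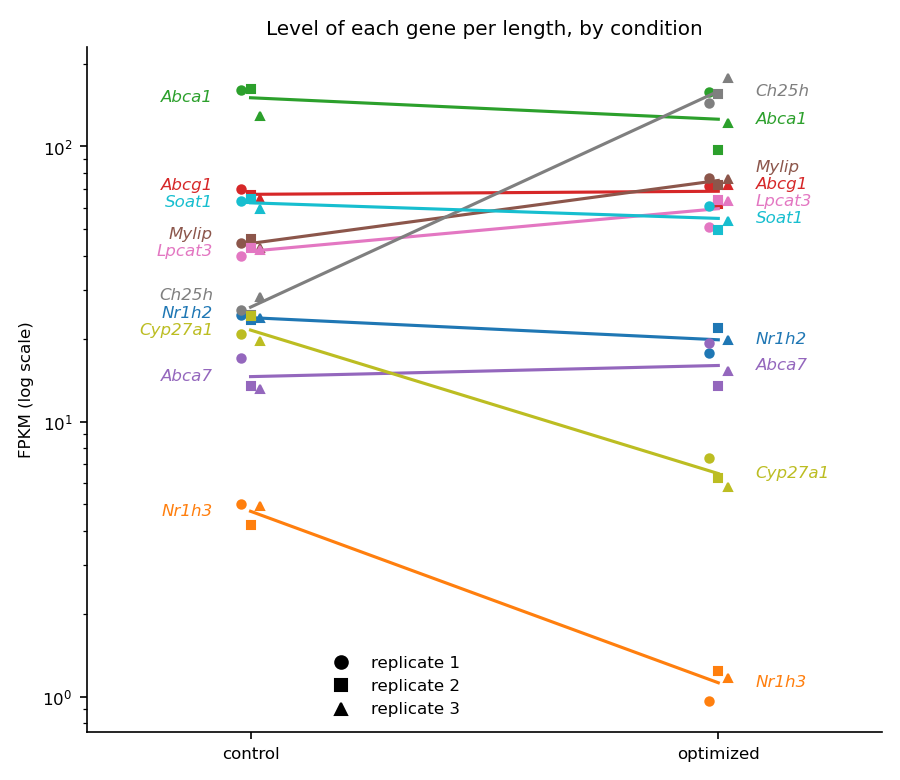
The log axis gives FPKM, the count scaled by gene length and library size, with a point for each library and lines between the means of the conditions. Ch25h climbs from 26.1 to 159 FPKM and Cyp27a1 drops from 21.5 to 6.47 FPKM, while Abca1, Abcg1 and Soat1 run nearly level.

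The plot of FPKM by condition orders the 10 genes by level per length. The order rests on the gene lengths behind the FPKM values, and some of these differ from GENCODE M39. For Soat1 they imply 4872 to 5162 bases, against 10680 bases of exons there. In control cultures Abca1 led with 150 ± 18.4 FPKM, followed by Abcg1 with 67.0 ± 2.79 and Soat1 with 62.4 ± 2.81 FPKM (SD, n = 3), whose libraries overlapped. Mylip and Lpcat3 came next and overlapped, at 44.4 ± 1.70 and 41.6 ± 1.53 FPKM (SD, n = 3). Neighbours also overlapped among Ch25h, Nr1h2 and Cyp27a1, at 26.1 ± 2.00, 23.9 ± 0.56 and 21.5 ± 2.34 FPKM. Abca7 had 14.6 ± 2.16 FPKM, and Nr1h3 was the lowest with 4.72 ± 0.46 FPKM.

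In optimized cultures Ch25h had the highest mean, 159 ± 16.8 FPKM, but overlapped with Abca1 at 126 ± 30.4 FPKM (SD, n = 3). Mylip, at 75.2 ± 2.19 FPKM, lay above all libraries of Abcg1, at 68.7 ± 5.86 FPKM, whereas in control cultures it lay below all of them. The gap in optimized cultures was narrow, with 72.74 FPKM in the lowest library of Mylip and 72.55 FPKM in the highest of Abcg1. Abcg1, Lpcat3 and Soat1 overlapped with their neighbours in the order. Nr1h2 had 19.8 ± 2.03 FPKM and overlapped with Abca7 at 16.0 ± 2.99 FPKM. Cyp27a1 dropped below Abca7, to 6.47 ± 0.81 FPKM, and Nr1h3 remained the lowest at 1.12 ± 0.14 FPKM. Averaged over the libraries, Abca1 stood at the 97.3rd percentile of all genes tested in FPKM and Nr1h3 at the 39.4th.

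**Figure D3:**
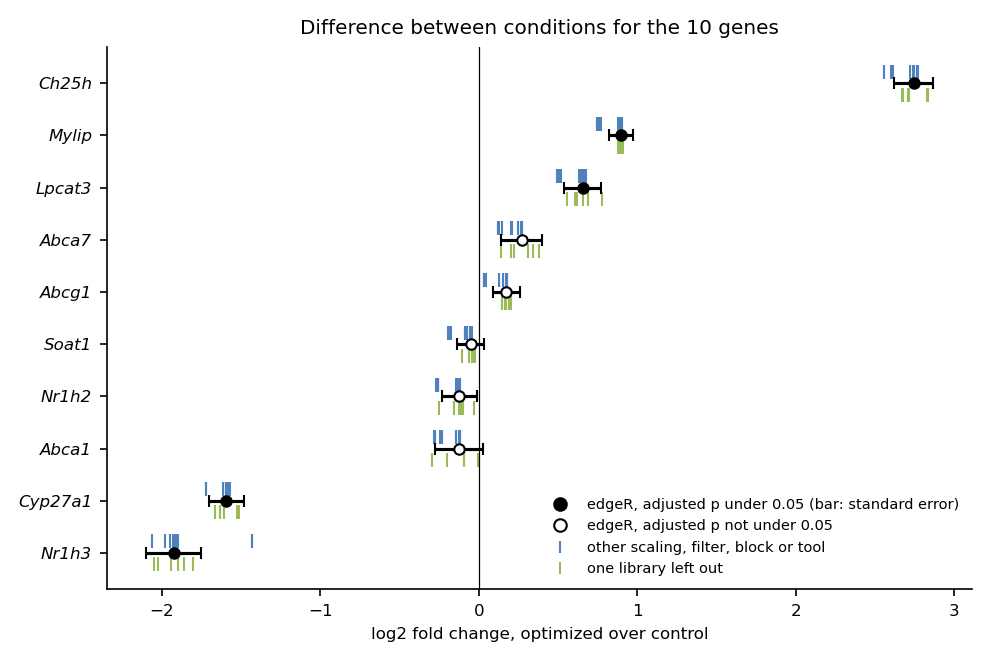
Points give the log2 fold change of each gene with its standard error, filled where the adjusted p-value was under 0.05. Ticks above show other scalings, filters, terms or tools and ticks below show fits without 1 library. Ticks of Ch25h stay between 2.56 and 2.84 and those of Nr1h3 between -2.06 and -1.43, while those of Abca1 reach from -0.29 to -0.01.

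The 5 calls held under all 17 alternatives run, with 3 genes higher and 2 lower in each, beside further genes in 3 of them. The lowest fold changes in size were 0.75 for Mylip, 0.50 for Lpcat3, 2.56 for Ch25h and -1.43 for Nr1h3, all with limma on log2(FPKM + 1). That scale understates changes of low genes such as Nr1h3, which was at -1.98 with limma on log2(FPKM + 0.1). There the other genes moved little, with Mylip at 0.76, Lpcat3 at 0.51 and Ch25h at 2.60. Cyp27a1 was closest to 0 without optimized replicate 3, at -1.51.

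Promoter sequences are shown for the genes that best match the DR4 element to which LXR pairs bind, and for the gene with the largest rise. The element is a direct repeat of AGGTCA with a spacer of 4 bases, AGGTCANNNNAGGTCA. It was searched on both strands in the 300 bases before the start of the canonical transcript of 21757 protein-coding genes (GRCm39, GENCODE M39), by the number of its 12 fixed letters that matched. Abca1, Abcg1 and Lpcat3 had 9 of 12, a number reached by 21.5% of all promoters, and Nr1h2, Abca7, Ch25h, Cyp27a1 and Soat1 had 8, reached by 77.6%. Nr1h3 and Mylip had 7, reached by 99.9%. None of the 10 genes reached 10 letters, as 2.97% of promoters did. The stretches run from 5′ to 3′ on the strand of the gene, with the letters of both repeats in capitals:
Abca1, chr4:53159927-53159982, minus strand: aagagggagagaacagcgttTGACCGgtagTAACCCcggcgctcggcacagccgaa
Abcg1, chr17:31276371-31276426, plus strand: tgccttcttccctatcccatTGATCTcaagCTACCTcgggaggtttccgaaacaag
Lpcat3, chr6:124639650-124639705, plus strand: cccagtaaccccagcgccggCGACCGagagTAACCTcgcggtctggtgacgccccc
Ch25h, chr19:34452810-34452864, minus strand: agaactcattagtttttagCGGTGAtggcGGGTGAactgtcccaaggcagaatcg

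In Abca1, Abcg1 and Lpcat3 the repeat lies on the strand opposite to the gene, 47, 255 and 222 bases before the transcript start. Read in the orientation of the element, that of Abca1 is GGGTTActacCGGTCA and that of Lpcat3 AGGTTActctCGGTCG. Of these genes Lpcat3 rose and the others did not pass the test. A match of letters is a description of the sequence, and binding was not measured.

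The other genes of the pathway were counted in 10 lists, of which 88 of 105 genes could be tested, with 16 higher and 26 lower. Over all genes tested, 14.7% were called higher and 15.2% lower. The counts of each list stand beside these shares, and no list was tested as a set. The list of LXR partners and coregulators had 2 of 14 genes higher and 0 lower. With library size alone, or without control replicate 2 or 3, 1 gene was higher. In limma with a mean FPKM of 1 or more it was 0 of 13, and with a term for replicate number it was 3 of 14. Without optimized replicate 1, the coregulator genes Ncoa2 and Ncoa3, named after their values were seen, were lower, at -0.33 and -0.28 on the log2 scale. Their adjusted p-values by edgeR were then 0.0057 and 0.017, and both were also lower with the gene length trend removed. Rxra had 156 ± 12.8 and 178 ± 3.68 CPM (SD, n = 3) and Rxrb 42.0 ± 2.16 and 43.2 ± 7.71 CPM, and neither of these LXR partners passed the test. The sign of the small difference in Rxrb turned with library size alone, at -0.10. Rxrg, another partner gene, rose and had 1 to 8 counts in control and 14 to 31 in optimized libraries, and was named after its values were seen.

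Other LXR target genes had 8 higher and 3 lower of 13 tested, with a median log2 fold change of 0.63, against 0.01 over all genes. Apoc2 and Apoc1, apolipoprotein genes of the Apoe cluster, had log2 fold changes of 1.86 and 1.52. Apoc2 shares 646 bases of exons with Apoc2l on the same strand, which had 1.04 times its count, and the adjusted p-value of Apoc1 was 0.053 by edgeR without control replicate 2. Apoe, the main lipoprotein gene of microglia, had 30924 ± 4110 and 51383 ± 13936 CPM (SD, n = 3) and an adjusted p-value of 0.022 by edgeR. That value was 0.090 and 0.11 when control replicate 1 or 2 was left out, and 0.053 when optimized replicate 3 was. Lpl, lipoprotein lipase, fell from 4891 ± 153 to 1671 ± 157 CPM (SD, n = 3), which is -1.55 on the log2 scale. The other genes of the list that passed the test are named after their values were seen. Arl4c, a small GTPase gene, rose from 112 ± 6.87 to 301 ± 13.3 CPM, Smpdl3a, a phosphodiesterase gene, from 93.5 ± 6.71 to 174 ± 20.5 CPM, and Mertk, which encodes a receptor for dying cells, from 212 ± 6.04 to 326 ± 29.2 CPM (SD, n = 3). Scd2 and Acaca, genes of fatty acid synthesis, had log2 fold changes of 0.41 and 0.63. In the 3 limma fits on FPKM 6 genes of the list were higher, without Apoe and Acaca. Scd1 and Fasn of the same route fell by 1.27 and 0.47 on the log2 scale, and the adjusted p-value of Fasn by edgeR, 0.038 with all libraries, was 0.069 to 0.15 when control replicate 1 or 3 or optimized replicate 2 or 3 was left out. Srebf1, which encodes the main regulator of that route, had 146 ± 7.01 and 159 ± 8.29 CPM (SD, n = 3). Pltp, which encodes a phospholipid transfer protein, had 268 ± 5.10 and 271 ± 53.7 CPM (SD, n = 3). Neither gene passed the test. Ctsa, on the opposite strand, overlaps exons of Pltp by 1252 bases and averaged 60766.5 counts, against 6306.0 for Pltp. How many reads of Ctsa were counted for Pltp was not tested.

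**Figure D4:**
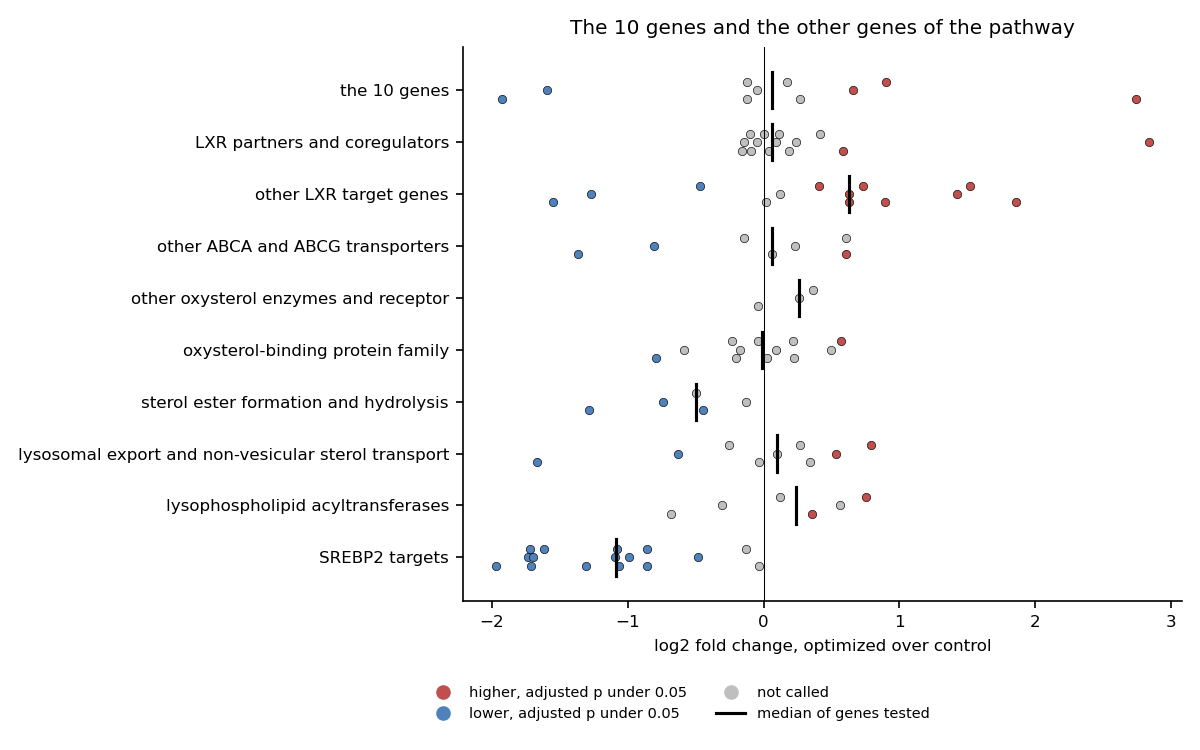
Each point is a gene tested, placed by its log2 fold change, for the 10 genes and 9 lists, with black bars at the medians. SREBP2 targets lie below 0 with a median of -1.09, other LXR target genes have a median of 0.63, and most coregulators lie near 0.

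Genes that store or release sterol esters went down or did not pass the test, with 3 of 5 lower. Lipa, the lysosomal acid lipase gene, fell from 1128 ± 33.5 to 674 ± 25.2 CPM (SD, n = 3), which is -0.74 on the log2 scale. Lipe, which encodes a neutral lipase, had a log2 fold change of -0.45. Exons of Lipe share 1326 bases with 4732471J01Rik on the other strand, which had 0.629 times the mean count of Lipe. Soat2, a relative of Soat1 named after its values were seen, had a log2 fold change of -1.28 and means of 2.28 and 0.94 CPM. Its adjusted p-value by edgeR was 0.0092, and 0.055 without control replicate 3.

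Among genes of lysosomal export and sterol transport, 2 of 9 were higher and 2 lower. Stard4, a sterol carrier gene and SREBP2 target, fell from 26.5 ± 1.55 to 8.31 ± 0.34 CPM, and Stard3 from 121 ± 8.41 to 78.6 ± 6.69 CPM (SD, n = 3). Gramd1a, which encodes a protein that moves cholesterol from the plasma membrane to the endoplasmic reticulum, rose from 92.9 ± 6.78 to 161 ± 6.88 CPM (SD, n = 3). Exons of Npc1, the other gene that rose, share 1086 bases with Rmc1 on the other strand, which had 0.297 times the mean count of Npc1. Npc1 encodes the lysosomal cholesterol exporter and had a log2 fold change of 0.53. Its partner Npc2 had 1266 ± 87.2 and 1526 ± 285 CPM (SD, n = 3) and did not pass the test with all libraries, with an adjusted p-value of 0.19 by edgeR, and 0.0041 without optimized replicate 1.

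Of 7 other ABCA and ABCG genes tested, 1 was higher and 2 lower, and 8 of the 15 listed had too few counts. Abca9 fell from 127 ± 12.4 to 49.3 ± 7.41 CPM (SD, n = 3), which is -1.37 on the log2 scale. Abca2 rose by 0.61 on the log2 scale, and its adjusted p-value by edgeR, 0.017 with all libraries, was 0.084 without control replicate 2, 0.077 without control replicate 3 and 0.099 with library size alone. Abcg3, named after its values were seen, had a log2 fold change of -0.81 at means of 3.32 and 1.89 CPM, and its adjusted p-value by edgeR rose from 0.025 to between 0.084 and 0.10 when control replicate 1 or 2 or optimized replicate 3 was left out. Abca3, which had the highest CPM of the list averaged over all 6 libraries, had 104 ± 9.95 and 108 ± 10.1 CPM (SD, n = 3).

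Oxysterol-binding proteins had 1 of 12 genes higher and 1 lower. Of these proteins' genes, 2 were lower with DESeq2. With library size alone, in each limma fit on FPKM and with the gene length trend removed, 3 of these genes were lower. Osbpl8, with the highest CPM of them, fell from 370 ± 42.1 to 214 ± 44.1 CPM, and Osbpl3 rose from 27.8 ± 1.88 to 41.1 ± 5.74 CPM (SD, n = 3), a call that limma on FPKM did not make. Of the relatives of Lpcat3, 2 of 6 were higher and 0 lower. Lpcat1 rose from 39.6 ± 2.06 to 66.9 ± 4.33 CPM and Mboat7 from 40.6 ± 3.31 to 51.9 ± 4.33 CPM (SD, n = 3). Mboat7 shares 2201 bases of exons with Tsen34 on the other strand, and its adjusted p-value was 0.022 by edgeR but between 0.072 and 0.11 when control replicate 1 or 2 or optimized replicate 2 was left out. Lpcat2, with the highest CPM of them, had 101 ± 5.99 and 110 ± 7.87 CPM (SD, n = 3) and did not pass the test.

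SREBP2 drives cholesterol synthesis and uptake when sterol in the endoplasmic reticulum is low, and so runs counter to LXR. Of its 16 targets tested, 14 fell and 0 rose. Idi1 fell from 33.7 ± 2.65 to 8.58 ± 0.80 CPM, Cyp51 from 54.9 ± 2.24 to 16.5 ± 0.88 CPM and Sqle from 37.6 ± 2.49 to 11.4 ± 0.65 CPM (SD, n = 3). Exons of Cyp51 and Sqle share 1253 and 470 bases with Akap9 and Washc5 on the other strand. Akap9 had 0.908 times the mean count of Cyp51, and Washc5 had 4.64 times that of Sqle. Fdft1, with the highest CPM, had 185 ± 6.90 and 180 ± 22.9 CPM (SD, n = 3), and its exons share 1184 bases with Ctsb on the other strand, whose mean count was 96.4 times as high.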

How the data were processed

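In Galaxy, the authors aligned the read pairs with HISAT2 (mm39) and assigned them to genes with featureCounts. Versions, annotation and strand setting are not given in the sources used here. The deposited counts were raw, and the deposited FPKM values were each count divided by a gene constant and a library constant. Columns were matched to labels by name, and no column of another sample was present.

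The main test used edgeR 4.0.16 under R 4.3.3 (filterByExpr, TMM factors, glmQLFit and glmQLFTest, Benjamini-Hochberg adjustment, threshold 0.05). The standard error was the log2 fold change divided by the square root of F. The common dispersion was 0.0164, a coefficient of variation of 0.128. Alternatives used limma 3.58.1 and DESeq2 1.42.0. The edgeR fit without a block, DESeq2, edgeR with the gene length trend removed and limma on log2(FPKM + 0.1) were tested on simulated counts. The other fits, among them those with the replicate block, were not. The simulated gene lengths were drawn without regard to the counts, so those counts held no length trend. No simulated library was made to stand apart as optimized replicate 1 did.

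The 10 genes, the lists and the receptor ratio were chosen with earlier results of these data known. From each list, up to 3 genes with the largest change among those called with a mean of at least 5 CPM and the most abundant gene are named, with Rxra, Rxrb, Apoe, Gpr183, Lrp8, Vldlr and genes sharing exons with the 10. Some items that this rule names are not reported here. Exceptions are marked or given beside a count. Coordinates are from GENCODE M39 on GRCm39, where 35087 of the 41079 symbols were found.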

Additional observations from a re-analysis of the deposited data

How the results depend on the processing

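The 5 calls among the 10 genes held, with the same direction, under all 17 alternatives. These were DESeq2, library size alone, relative log expression factors, no filter, a minimum of 10 counts per library, the replicate block, limma on FPKM with 2 pseudocounts and with a mean FPKM of 1 or more, the gene length trend removed with and without the block, and each library left out. Genes called higher numbered 3 to 4 and lower 2 to 3. With the replicate block, Abca7 passed the test (log2 fold change 0.27, adjusted p = 0.021 by edgeR, range 0.021 to 0.58). With the block and the length trend removed, Abca1 (-0.23, adjusted p = 0.048) and Abca7 (0.21, adjusted p = 0.027) passed. Deviations from the group mean correlated at 0.273, -0.012 and 0.185 between same-numbered libraries, and not every library correlated best with its own number. With 3 libraries per group these values cannot decide whether libraries were paired, and the labels do not state pairing. The block called 4924 genes against 4360. Other pathway genes called higher fell from 16 to 10 with limma on log2(FPKM + 1) and on log2(FPKM + 0.1), and to 9 with a mean FPKM of 1 or more, where all genes called higher numbered 1176 against 2142, and the cause was not tested. Higher genes were 49.1% of all calls with TMM, 32.3% with library size alone and 28.4% in that last limma fit. The difference in the log2 receptor ratio, 1.71, kept its direction throughout and was 1.17 with a pseudocount of 1. Its exact permutation p-value was 0.1, 0.25 with the replicate block and 0.2 without any 1 library, and none of these designs can go under 0.05. Low counts limit Nr1h3, the lowest of the 10 genes, and listed genes such as Rxrg, Soat2, Abcg3 and Scd1.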
